A study of Xenopus laevis with 13 samples.

Results

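The passage of Xenopus laevis embryos from the late gastrula, stage 12, to the neurula, stage 15, was examined on 2 of the 13 one-color DNA microarrays of a developmental series, 1 array for stage 15 and 1 for stage 12. Both arrays were chosen by the titles of the samples. The series holds the unfertilized egg, the 2-cell and 16-cell stages and stages 8, 9, 10.5, 12, 15, 20, 25, 30, 35 and 40, each as 1 array of total RNA from whole eggs or whole embryos of no stated strain. The embryos were dejellied, cultured in dilute Steinberg's solution, staged after Nieuwkoop and Faber, and received no treatment. For both arrays a second label names an earlier stage than the title and the stage characteristic do, and the title was followed. The stage 15 and stage 12 arrays lay on 1 slide, together with the arrays of stages 9 and 10.5, and the 13 arrays lay on 4 slides. Because each stage was measured once, no difference between these stages could be tested, and no p-value is given.

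A frog egg is loaded with maternal mRNA during oogenesis, and cleavage runs on this store while the embryo's own genes are silent. The embryo begins broad transcription at the midblastula transition, and maternal mRNA is then removed over a period that differs from gene to gene. Between the late gastrula and the neurula the blastopore closes, the neural plate forms and begins to fold, and the mesoderm is parted into notochord, somites and lateral plate. A whole-embryo RNA level at these stages therefore combines what remains of the maternal store with what the embryo has made. In whole embryos, fewer cells that hold an mRNA and less of that mRNA per cell cannot be told apart.

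Probes are identified on the array by a GenBank accession. None of the 28256 accessions was found in the gene table of the Xenopus laevis genome used here (0 of 28256), so probes are described in classes and only a few are given by accession. The defining genes of gastrula and neurula tissues could not be read for the same reason, and the stage labels rest on the titles. A signal is given below as the log2 of the spot's intensity relative to the 75th percentile of its array. A probe was counted as detected where the scanner software called it well above background. Of 43803 probes, 70.7% were detected at stage 15 and 68.8% at stage 12. Before scaling, the 75th percentile of the intensity was 1142 at stage 15 and 1198 at stage 12, and no probe was saturated (0 on both arrays).

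The probes were divided by the 5 arrays from the egg to stage 9, none of which belongs to the pair compared. A total of 24915 probes were detected on all 5 and are called maternal. A further 13343 were detected on none and are called new, and the remaining 5545 are called mixed. New means only that no signal was seen before stage 10.5: the dimmest detected probe lay at -5.42 on the egg array and between -6.91 and -6.42 on the other 4, so a lower maternal level would be missed. The class of a probe says when its signal was first seen, not whether the RNA present at stage 15 is maternal or embryonic.

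Across all classes, 32185 probes were detected on at least 1 of both arrays. Of these, 5787 (18%) were at least 2-fold higher at stage 15 and 5961 (18.5%) at least 2-fold lower. The split was nearly even at this scaling but differed by class. Spike-in scaling gave 6463 higher and 5159 lower. Maternal probes were lower more often than higher: of 24421 tested, 5031 (20.6%) were at least 2-fold lower at stage 15 and 2512 (10.3%) at least 2-fold higher. Of 4047 new probes tested, 2138 (52.8%) were higher and 359 (8.87%) lower. The way the classes were made bears on these directions, since a new probe started from no detected signal and 1264 of the 4047 were tested through their detection at stage 15 alone. Of the 2585 new probes detected on both arrays, 1003 were higher and 224 lower. Maternal probes, in turn, were all detected at the start. Mixed probes lay between, with 1137 of 3717 (30.6%) higher and 571 (15.4%) lower. The median change from stage 12 to stage 15 was -0.21 (log2) for maternal probes, 0.29 for mixed probes and 1.12 for new probes, against -0.07 over all probes tested.

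**Figure D1:**
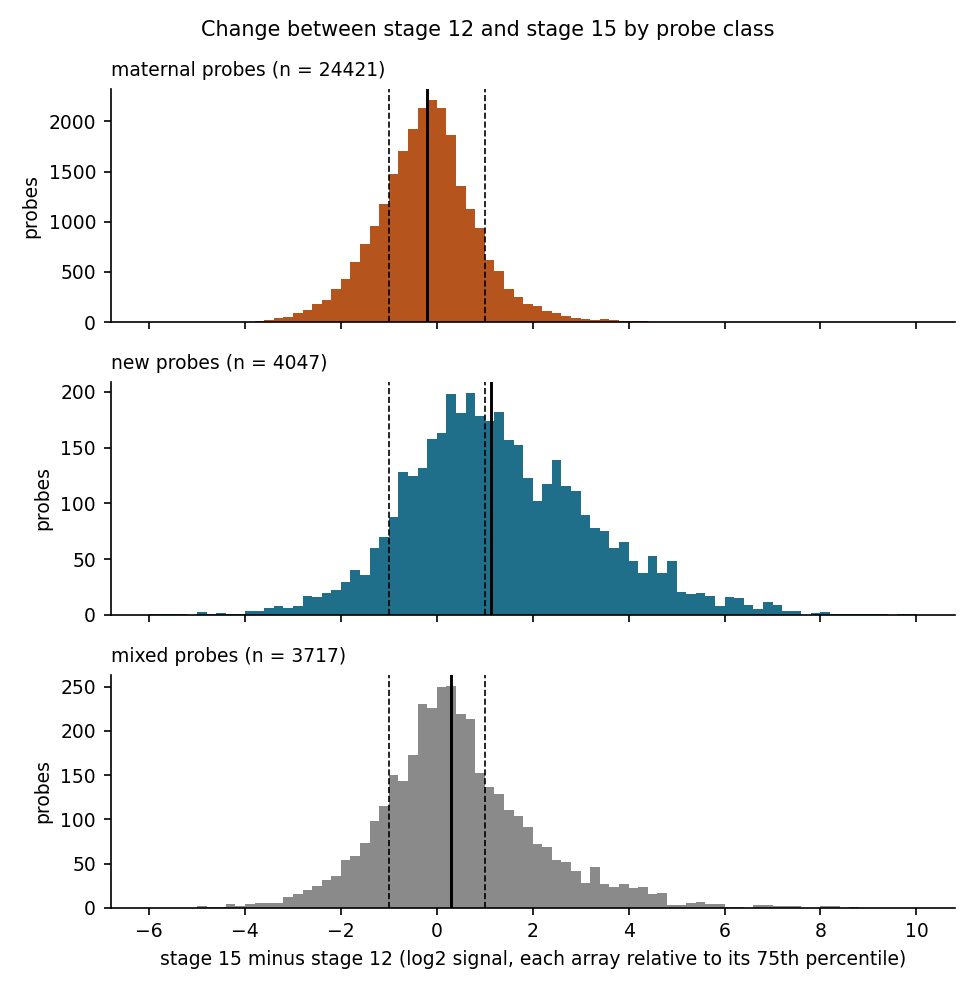
Number of probes (vertical axis) by the change between the stages, stage 15 minus stage 12 in log2 signal (horizontal axis), for maternal, new and mixed probes detected on at least 1 of both arrays. Dashed lines mark a 2-fold change and the solid line the median. The maternal distribution is centered slightly below 0 (median -0.21), and the new one is shifted to the right with a long tail of rises (median 1.12).

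At a limit of 4-fold, 1350 new probes were higher and 123 lower, whereas 620 maternal probes were higher and 1097 lower. Many probes lay close to the 2-fold limit. For falls of maternal probes, 1174 lay just past it, with a fall between 1 and 1.2 (log2), and 1476 just short of it, with a fall between 0.8 and 1.

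The loss of maternal signal was mostly a decrease and rarely a disappearance. At stage 15, 23782 maternal probes (95.5%) were still detected, against 24189 (97.1%) at stage 12. Of those detected at stage 12, 639 were no longer detected at stage 15, and 232 were detected only at stage 15. Among the 5031 lower probes, 4509 were detected on both arrays, and their median change was -1.45 (log2), or 2.73-fold, with an interquartile range of -1.84 to -1.20. The largest measured fall was 4.73. For the other 522 the stage 15 signal is only an upper limit. Set against the lowest detected signal of the stage 15 array, 340 of the 522 still fell at least 2-fold, so that 4849 probes were lower by measurement or by limit. A background correction that raises dim values (normexp with an offset of 50) reduced the 5031 to 3208.

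The 639 probes that lost detection were close to the limit before they did so. Their median level at stage 12 was -4.68, on an array whose lowest detected signal was -5.72. They had stood at a median of -3.35 at stage 9 and -3.66 at stage 10.5. The limit on their fall was at least 2.09-fold in the median and at least 11.1-fold for the probe with the largest limit. On later arrays 31% of them were detected at stage 20 and 65.9% at stage 40. None of the 5 later arrays detected 191 (29.9%) of them. Those arrays detected dimmer signals, down to -6.20 at stage 20 and -6.95 at stage 40, against -5.75 at stage 15. Over all probes, 72.3% were detected at stage 20 and 79.5% at stage 40. The median of the 639 at stage 40 was -5.83, so regained detection is not by itself a rise.

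The share of maternal probes that fell was similar over most of the range of early signal. The maternal probes were divided into 4 groups of equal size by their mean level over the 5 arrays up to stage 9. From the dimmest to the brightest group, 17%, 22.8%, 21.8% and 20.8% were at least 2-fold lower at stage 15. The share that was higher did change with the level, with 16.4%, 11.7%, 8.73% and 4.36% in the same order. These groups rank probes by intensity, which also depends on the probe, and not by the amount of RNA. Dim signals are also measured less precisely, as the paired probes below show, and the part of that in the excess of dim rises was not tested.

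Set against stage 9, the last array before the gastrula, maternal probes moved in both directions over these stages at this scaling. The number of maternal probes at least 2-fold below their stage 9 level was 1914 (7.68%) at stage 10.5, had reached 6031 (24.2%) at stage 12 and stood at 8773 (35.2%) at stage 15. After that it changed slowly, with 9857 (39.6%) at stage 20 and 10302 (41.3%) at stage 40. The number at least 2-fold above stage 9 also increased, with 1172 (4.7%) at stage 10.5, then 4280 (17.2%) at stage 12 and 5307 (21.3%) at stage 15, and it was 5050 (20.3%) at stage 20. A fall of at least 8-fold below stage 9 was seen in 41, 949, 1956 and 2532 maternal probes at stages 10.5, 12, 15 and 20. Over all 30862 probes tested at stage 10.5 against stage 9, 7.31% were at least 2-fold lower and 13.7% higher. The maternal share of falls at stage 10.5 was close to that over all probes, but 24915 of these 30862 were maternal. New probes, undetected at stage 9, gave 0 falls among 1964 tested. The closeness therefore says little. For the later stages against stage 9, shares over all probes are not given, and neither are counts at other scalings. The 75th percentile of the intensity was 2000 at stage 9 and 1142 at stage 15. The mean spike-in signal was 12.62 and 12.41 (log2, before scaling) on these arrays. The percentile fell by more than the spike-in mean. Spike-in scaling would therefore lower every difference between stages 15 and 9, with more falls and fewer rises. How far the counts would change was not tested.

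The median of the maternal probes that fell between stages 12 and 15 was nearly steady up to stage 10.5, as was that of all maternal probes. For all 24915 maternal probes it was -0.46 at stage 9 and -0.54 at stage 10.5, with -0.68 at stage 12 and -0.82 at stage 15. Single probes could differ from the median. The median of the 5031 was -0.23 at stage 9 and -0.28 at stage 10.5, and it stood at -0.97 at stage 12, -2.61 at stage 15 and -2.99 at stage 20. From stage 25 on the median rose again in small steps, to -2.29 at stage 40. The levels of stages 12 and 15 follow from how the probes were chosen. Those up to stage 9 are not free of the choice either, since maternal probes had to be detected on each of these arrays. The arrays of stage 10.5 and of stage 20 onward were not used in the choice.

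**Figure D2:**
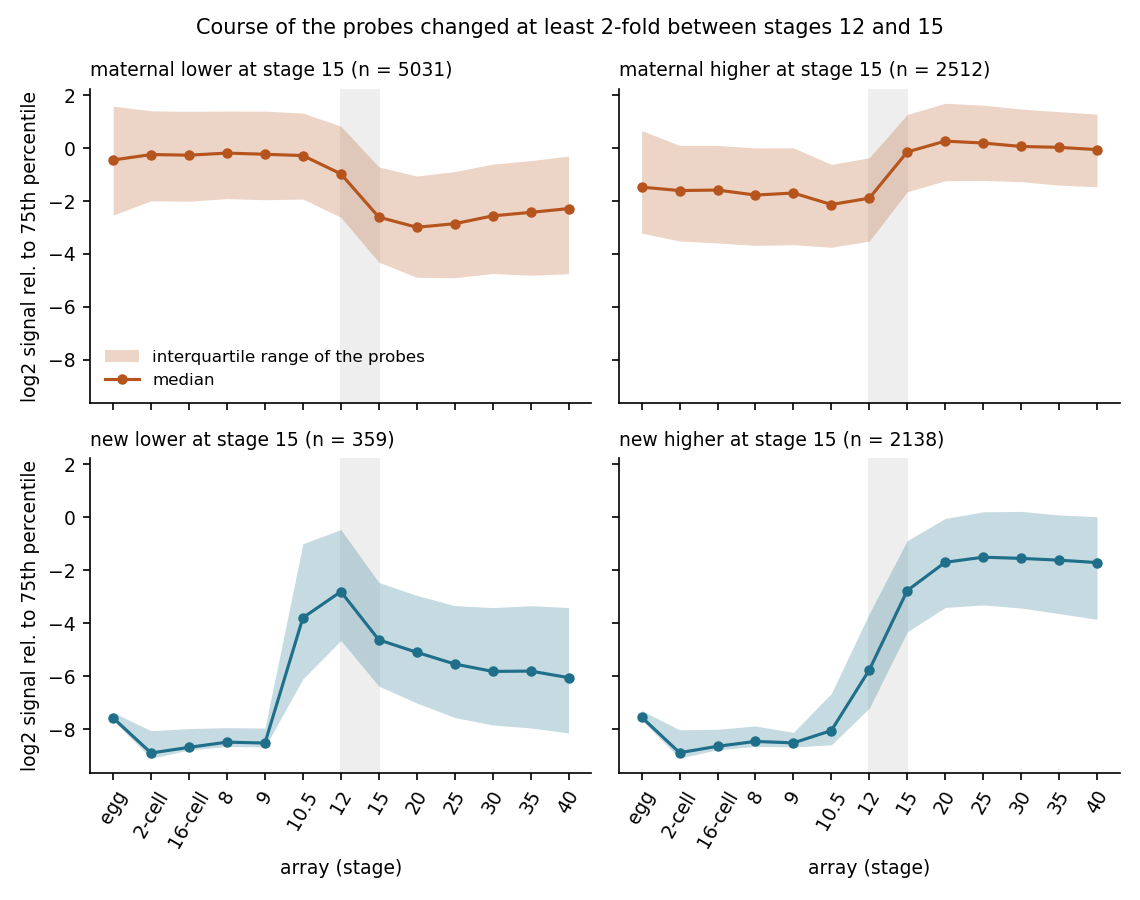
Median (points) and interquartile range (band) of the log2 signal relative to the 75th percentile (vertical axis) on each of the 13 arrays (horizontal axis) for maternal and new probes at least 2-fold lower or higher at stage 15 than at stage 12. The gray strip marks the pair of stages used for the choice. Maternal fallers were flat up to stage 10.5 and stayed low after stage 15, and the median of new fallers first left the undetected range at stage 10.5.

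The 2512 maternal probes that rose were mostly already detected at stage 12. Their median level was -1.70 at stage 9 and -2.13 at stage 10.5. It then stood at -1.89 at stage 12, reached -0.15 at stage 15 and was 0.26 at stage 20. For 2354 of them both arrays gave a measurement, with a median rise of 1.44 (log2), or 2.72-fold. The other 158 were not detected at stage 12, and 102 of these had a limit of at least 2-fold. A subset had dipped: 530 maternal probes were at least 2-fold lower at stage 12 than at both stages 10.5 and 15, whereas 125 were at least 2-fold higher at stage 12 than at both neighbors. Such turns rest on the single stage 12 array and have no replicate check.

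The rises of new probes included probes not detected at stage 12 and probes already detected there. New probes at least 2-fold higher at stage 15 numbered 2138, with 1003 detected at stage 12 and 1135 not. The class was chosen for having no detected signal on the early arrays, so gains of detection follow in part from the choice. How much of the gained signal came from either group was not tested. At stage 15, 3849 of the 13343 new probes (28.8%) were detected, against 2783 (20.9%) at stage 12. Gained and lost detection were unequal, with 1264 new probes detected at stage 15 only and 198 at stage 12 only. The share of the summed intensity of all probes that came from new probes was 6.04% at stage 15 and 3.95% at stage 12. For maternal probes this share was 89.7% at stage 15 and 92.2% at stage 12, and for mixed probes 4.23% at stage 15 and 3.82% at stage 12. These shares are ratios within an array and do not depend on the percentile used for scaling, although intensities of different probes are not strictly comparable.

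**Figure D3:**
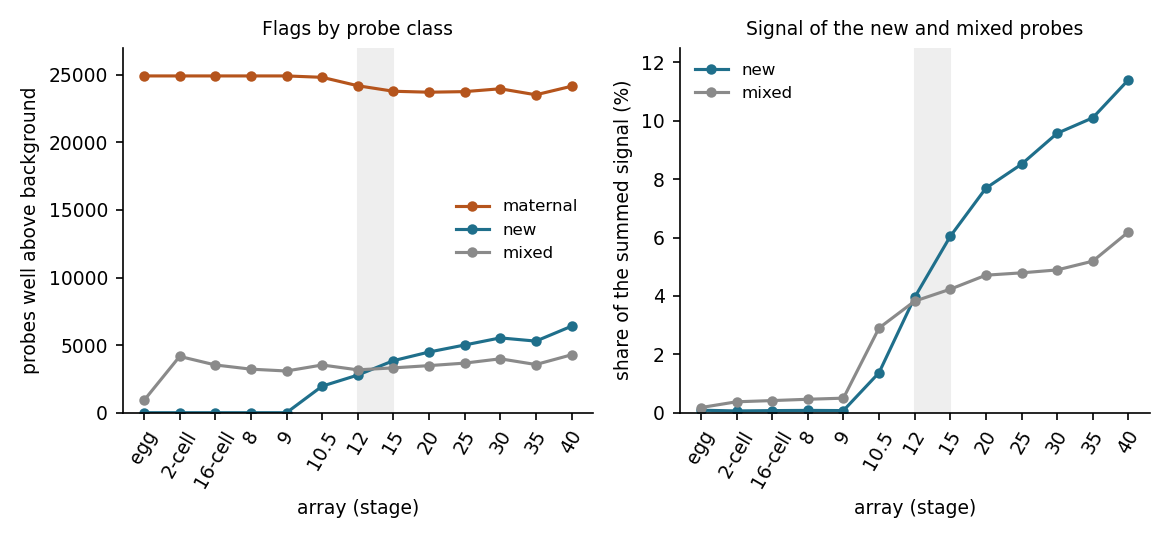
Left, number of probes well above background (vertical axis) on each array (horizontal axis) for the 3 classes. Right, share of the summed intensity in percent that came from new and from mixed probes. Between the gray strip's edges, stages 12 and 15, detected new probes were 2783 and 3849 in order of stage, and their share of the signal was 3.95% and 6.04%.

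Of the 2138 new probes that were at least 2-fold higher, 1003 were detected on both arrays. Their median rise was 1.93 (log2), or 3.81-fold, against 2.72-fold for maternal probes that rose, and the largest was 7.55. The remaining 1135 had a stage 12 signal not well above background, so that their rise is only a lower limit, and 756 of them had a limit of at least 2-fold. Measured changes and limits together gave 1759 new probes, and the same normexp correction reduced the 2138 to 1224. By the first array on which they were detected, 433 of the 2138 appeared at stage 10.5, 611 at stage 12 and 1094 at stage 15.

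The 1264 new probes detected at stage 15 and not at stage 12 came on near the limit. Their median level at stage 15 was -4.41, on an array whose lowest detected signal was -5.75. They went on to rise, with medians of -3.20 at stage 20, -2.85 at stage 25 and -2.73 at stage 40. Of the 1264, 1023 (80.9%) were detected on all 5 later arrays and 61 (4.83%) on none. Over all probes, detection was 70.7% at stage 15 and 79.5% at stage 40, where the lowest detected signal was -6.95. The share detected on all later arrays is not given for other probes, so the 80.9% has no baseline. Only 57 had been detected at stage 10.5. The limit on the rise was at least 2.46-fold in the median and at least 560-fold for the probe with the largest limit.

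New probes that fell were few, and part of their course follows from the choice. By definition they were not detected up to stage 9 and were at least 2-fold lower at stage 15 than at stage 12. Of the 359, 276 had been detected by stage 10.5, and the other 83 were first detected at stage 12. Their median was -8.52 at stage 9, within the undetected range, then -3.79 at stage 10.5 and -2.80 at stage 12, before it dropped to -4.62 at stage 15, with -5.10 at stage 20. By stage 40 the median was -6.05, and 214 of the 359 were detected there. A measured fall was available for 224, with a median of -1.45 (log2), and of the 135 that were not detected at stage 15, 48 had a limit of at least 2-fold. Among all new probes, 194 were at least 2-fold higher at stage 12 than at both stages 10.5 and 15, and 140 were so at stage 15 against stages 12 and 20.

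Most probes were still on the same side of their stage 12 level at the later stages, although fewer were past 2-fold at stage 40 than at stage 20. At stage 20, an array on another slide, 4385 of the 5031 maternal fallers (87.2%) were at least 2-fold below stage 12, as were 313 of the 359 new fallers (87.2%). Among risers, 2242 of 2512 maternal probes (89.3%) and 1886 of 2138 new probes (88.2%) were at least 2-fold above stage 12 at stage 20. These shares decreased with time, and at stage 40 they were 62.7% and 78.6% for maternal and new fallers and 65.2% and 74.5% for maternal and new risers. Shares over all probes, or over each class, are not given for these differences, so the counts have no baseline. All of these differences share the stage 12 array with the choice of the probes.

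A difference that shares no array with the choice, stage 20 minus stage 10.5, was therefore added after seeing the data. Over all 33953 probes tested, 31.6% were at least 2-fold higher at stage 20 and 31.4% at least 2-fold lower. The classes themselves differed in this, with 37% of 24869 maternal probes lower and 19.4% higher, and with 80.7% of 4756 new probes higher and 8.03% lower. Of the maternal fallers, 4647 (92.4%) were at least 2-fold lower at stage 20 and 9 at least 2-fold higher. Of the new risers, 2055 (96.1%) were higher and 5 lower, against the 80.7% of their class. Only 433 of the 2138 new risers were detected at stage 10.5. Their median there was -8.05, where the lowest detected signal was -6.44. All of them had to be detected at stage 15, so a rise was nearly fixed by the choice and says little. Maternal risers were higher in 1935 cases (77%) and lower in 63. New fallers were divided, with 178 (49.6%) lower and 61 (17%) higher. The median change of new fallers from stage 10.5 to stage 20 was -0.95 (log2). Of the 359, 194 were at least 2-fold higher at stage 12 than at both stages 10.5 and 15. The part of these in the divided counts was not tested.

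The same counts were made for the steps on either side. For maternal probes, 17.4% were at least 2-fold lower and 12.3% higher at stage 12 than at stage 10.5, against 20.6% lower and 10.3% higher at stage 15 than at stage 12. At stage 20 against stage 15, 9.21% were lower and 5.29% higher. For new probes the share that was higher was 73.6% at stage 12, with 52.8% at stage 15 and 32.7% at stage 20, each against the array before it. New probes were chosen for having no signal up to stage 9, so that their first steps could hardly be other than rises, and nothing is read from the order of these shares. The number of new probes that gained detection was 1067 at stage 12, with 1264 at stage 15 and 882 at stage 20. Over all probes, 21.1% were higher and 15.7% lower at stage 12, 18% higher and 18.5% lower at stage 15, and 10.9% higher and 9.85% lower at stage 20. In either direction, 36.5% changed at least 2-fold between stages 12 and 15, 36.8% between stages 10.5 and 12, and 20.8% between stages 15 and 20. Neighboring steps share an array, the last step crosses slides, and none of these differences was tested. Spike-in scaling lowered the count of maternal falls at stage 15 from 5031 to 4343. Other scalings are not given for the steps on either side, so no order of the maternal shares is read either.

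**Figure D4:**
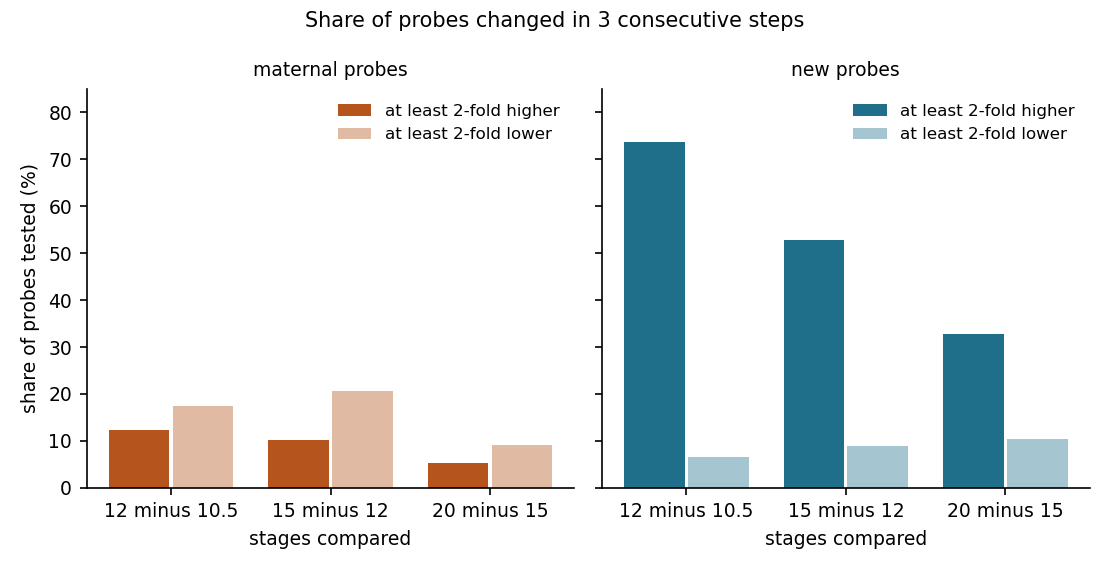
Share of the probes tested, in percent (vertical axis), that were at least 2-fold higher (dark bars) or lower (pale bars) at the later of 2 neighboring stages (horizontal axis), for maternal and new probes. In order of stage, the share of maternal probes that fell was 17.4%, 20.6% and 9.21%, at this scaling alone. The share of new probes that rose was 73.6%, 52.8% and 32.7%.

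With no replicate arrays, the probes that share an accession gave a measure of error within the pair of arrays. They test the spot and the probe sequence, and not the embryos, since both spots read the same RNA. Of the accessions, 12874 had 1 probe, 15217 had 2 and 165 had 3. For 9059 accessions at least 2 probes were detected on both arrays, and in 8378 of these (92.5%) all such probes moved the same way between stages 12 and 15. In 8964 accessions with exactly 2 such probes, their changes differed by a median of 0.11 (log2), and 95% differed by no more than 0.71. The SD of a single probe's change, estimated from these pairs, was 0.25, and a 2-fold change is 1. The error model of the scanner software gave a median error of 0.20 for a single probe's change, a median and not an SD over pairs. For the difference between both probes its median error was 0.29, where the median absolute difference was 0.11. Across the 8964 accessions the changes of both probes had a Pearson r of 0.956, a description of genes within 1 pair of arrays that are not independent replicates.

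The second probe of an accession served as a check that the first one's call did not use. Only accessions with both probes detected on both arrays entered this check. Where both probes were maternal and the first was at least 2-fold lower at stage 15, in 1537 accessions, the second was also at least 2-fold lower in 1346 (87.6%) and lower by any amount in 1530. Over all 7161 such accessions the second probe was at least 2-fold lower in 21.5%. For maternal rises the counts were 654 of 753 (86.9%), against 10.4% over all. For accessions with new probes, the second probe repeated 195 of 199 rises (98%) and 43 of 49 falls (87.8%), where 43.3% of all 490 rose and 10.2% fell. The sizes were also close: the median fall of the second maternal probe was -1.42 where that of the first was -1.46, and the median rise of the second new probe was 1.99 where that of the first was 1.98.

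**Figure D5:**
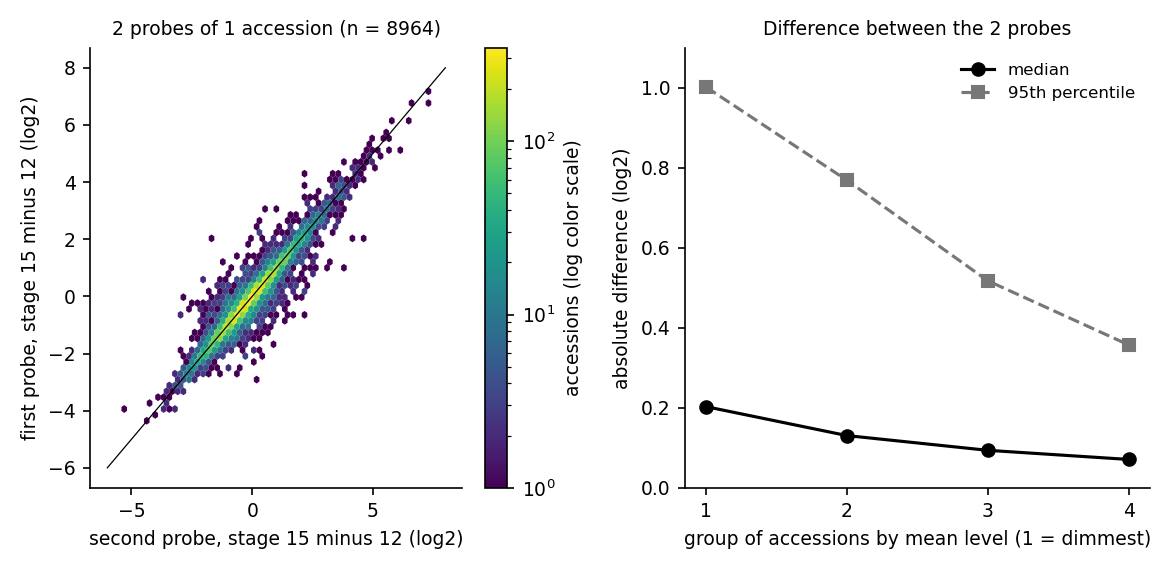
Left, change between the stages, stage 15 minus stage 12 in log2 signal, of the first (vertical axis) against the second probe (horizontal axis) of an accession, for 8964 accessions, with color for the number of accessions on a log scale and the line of equal change. Right, median and 95th percentile of the absolute difference between the 2 probes in log2 (vertical axis) in 4 groups of accessions by mean level (horizontal axis). The median difference was 0.07 in the brightest group and 0.20 in the dimmest.

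Agreement depended on brightness. In the dimmest of 4 groups of accessions, by mean level over both stages, the probes differed by a median of 0.20 and 90% moved the same way, and in the brightest group the median was 0.07 and 93.2% moved the same way. It also varied with the number that ends each probe's name, whose meaning the files do not state. Where these numbers differed by 13 to 40 between both probes, 95.1% of accessions moved the same way, and where they differed by 103 to 1075, 90.6% did. Among 3454 accessions with at least 1 probe past 2-fold, 98.4% moved the same way and in 77.7% both probes were past 2-fold in the same direction.

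Among the 8964 accessions with exactly 2 probes detected on both arrays, disagreement was rare but not absent. Accessions left with 1 detected probe were not counted, such as that of the largest measured rise of a new probe, given below. With no filter on dim probes, all probes moved the same way in 12431 accessions, where 15217 have 2 probes and 165 have 3. Of the 8964, 230 (2.57%) had changes that differed by over 1 (log2), and in 2 both changes were past 2-fold in opposite directions. In the first of these, both probes were maternal, and one stood at 2.36 at stage 15 and 1.11 at stage 12 while the other stood at -3.11 at stage 15 and -1.90 at stage 12. In the second, a maternal probe stood at 0.07 at stage 15 and -1.88 at stage 12 and a mixed probe at -5.51 at stage 15 and -3.74 at stage 12. The class itself could also differ: of the 15217 accessions with 2 probes, 7775 had both maternal and 3174 both new, while 1122 (7.37%) had one of each. In the 138 of these with both probes detected on both arrays, the changes differed by a median of 0.27, against 0.11 where both were maternal and 0.12 where both were new.

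Whether this level of agreement is usual for these arrays can be read from the neighboring steps. At stage 12 against stage 10.5, 91.6% of 9044 accessions moved the same way, and the median difference between probes was 0.13. At stage 20 against stage 15, which lie on different slides, 86.3% of 9542 did, with a median difference of 0.17. The typical size of change was also smaller there, with a median absolute change of 0.44 (log2), against 0.63 at stage 12 and 0.70 at stage 15.

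The kind of sequence behind a probe differed between classes. Accessions that begin with BC belong to full-length cDNA collections, while most others on this array are of other kinds, single-read cDNA ends among them. Of the 13410 probes with a BC accession, 75% were maternal and 16.2% new, and of the 30393 others 48.9% were maternal and 36.7% new. Among new probes tested, 67.2% of those with a BC accession and 48.5% of the others were at least 2-fold higher at stage 15. Among maternal probes the fallers were 21.5% with a BC accession and 20% of the others.

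The largest changes are given here for probes detected on both arrays. The 12 largest measured rises of new probes, counted once per accession, lay between 65.5-fold and 188-fold, and the 12 largest of maternal probes between 24.5-fold and 174-fold. Falls were smaller, with 10.9-fold to 38-fold for new probes and 12.3-fold to 26.6-fold for maternal probes. In each of these 4 sets, all 12 probes were past 2-fold in the same direction between stages 10.5 and 20. Over all probes 31.6% were higher and 31.4% lower in that comparison. The 12 were chosen for the largest changes within that interval, so the outcome was nearly fixed by the choice. The first probe of each set is given below.

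Among new probes detected on both arrays, the largest rise was that of Xl#S15622807_613, of accession CD100819. Its signal was 2.27 at stage 15 and -5.29 at stage 12, a rise of 7.55 with a scanner error of 0.30. It was -5.18 at stage 10.5, was not detected on the 5 arrays before that, and stayed between 2.87 and 3.93 from stage 20 to stage 40. The other probe of this accession, Xl#S15622807_678, was not detected at either stage, with -7.17 at stage 15 and -7.01 at stage 12, and was detected on 1 of the 13 arrays. This rise therefore rests on 1 probe, and the largest limit among new probes not detected at stage 12, at least 560-fold, was higher.

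Among maternal probes detected on both arrays, Xl#S13683506_1227 of accession AF374473 rose most. It stood at 2.49 at stage 15 and -4.96 at stage 12, a rise of 7.45 with a scanner error of 0.31. Its early levels were low but detected, from -2.95 in the egg to -4.53 at stage 10.5. The second probe of the accession, of the mixed class, moved alike, with 2.81 at stage 15 and -5.35 at stage 12, a rise of 8.16. At stage 20 they stood at 3.64 and 4.12, and both remained above 2 up to stage 40.

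The largest measured fall of a maternal probe belonged to Xl#S13590808_1476 of accession U40457. It stood at -1.53 at stage 15 and 3.20 at stage 12, a fall of 4.73, or 26.6-fold, with a scanner error of 0.20. Before that it was bright on every array, with 1.96 in the egg, between 3.28 and 3.33 from the 2-cell stage to stage 9, and 4.17 at stage 10.5. After stage 15 it went on falling, to -4.99 at stage 20, was not detected from stage 25 to stage 35, and was detected again at stage 40 with -5.59. The other 2 probes of the accession fell by 4.73 and 4.68, so all 3 spots gave the same size.

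The largest measured fall of a new probe was that of Xl#S13590516_1261 of accession AF081350. It was not detected up to stage 9, stood at 0.49 at stage 10.5 and 0.60 at stage 12, and at -4.64 at stage 15, a fall of 5.25, or 38-fold, with a scanner error of 0.27. From stage 20 on it was no longer detected. A second new probe of the accession was not detected at stage 15 and stood at -0.26 at stage 12, a fall of at least 44.9-fold, larger than that of the first. The other one, of the mixed class, stood at -4.00 at stage 15 and -0.13 at stage 12, a change of -3.87.

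Among genes of glycan synthesis, 2 could be reached by the accessions of the study's glycogene list, gcnt2 and mgat5b. The genes whose course the paper describes, fut1, abo, mgat1, galnt3, galnt7 and galnt11, were not among those reached. gcnt2, which encodes an enzyme that adds the branches of poly-N-acetyllactosamine chains, has 2 probes, both new. Xl#S20337398_4967 stood at -0.74 at stage 15 and -3.40 at stage 12, a rise of 2.66 (6.33-fold). Xl#S20337398_4736 stood at 1.46 at stage 15 and -1.11 at stage 12, a rise of 2.56 (5.92-fold). The scanner errors were 0.21 and 0.20, and the rises differed by less than that. At stage 20 the probes stood at -0.68 and 1.68, and from stage 25 on both were lower than at stage 15. mgat5b, which encodes a branching enzyme of N-glycans and O-mannosyl glycans, also has 2 probes, and neither was detected at stage 15 or stage 12, so no change is given.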

How the data were processed

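The authors extracted total RNA with ISOGEN, labeled it with the Quick-Amp kit (Cy3) and hybridized it to Agilent Xenopus arrays. The deposited scanner files, made with Agilent Feature Extraction 10.7.3.1 per the labels, give each spot's intensity, already background-corrected and not normalized between arrays, an error from the software's error model, and flags. The series-wide table was not used here.

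Control spots (1417 of 45220) were left out. Intensities under 1 would be set to 1, after the study's methods, which applied to no value (0), and each array's 75th percentile was subtracted from its log2 values. A change is called at 2-fold where a probe is well above background on at least 1 array of the pair. A probe dim on one array has a limit, taken against the higher of its own signal and the lowest signal well above background there. Scanner errors of a change were combined in quadrature from both spots and are not replicate spread. On 2 non-uniform spots at stage 15 and 1 at stage 12, values were kept. Named probes are those with the largest measured rise and fall in each class, with the other probes of the accession, and the glycogenes matched by accession. Fuller lists of probes and gene lists, meant for probes with gene names, were left out. The members and lists were chosen with earlier results of these data known. The calling step was run on simulated arrays with 4-fold changes in bright probes. Changes near 2-fold, in dim probes or in detection were not simulated. Alternatives were median, quantile and spike-in scaling, normexp, filters, a 4-fold limit, other class definitions and 1 mean per accession. Python 3.11.15, numpy 2.4.6, pandas 2.3.3, matplotlib 3.10.9, R 4.3.3 and limma 3.58.1 (normexp only) were used. A single array for each stage sets the limit of precision.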

Additional observations from a re-analysis of the deposited data

How the results depend on the processing

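Of 88 recomputed values, 57 stayed within 1.5 times of the reported count or, for the median, within 0.005 (log2). Most of these values are counts, which have no sign. The median change of maternal probes stayed negative wherever it was recomputed. Under every setting tried maternal probes were lower more often than higher and new probes higher more often than lower. For new probes this says little, since they were chosen for having no early signal. Over all probes the direction depended on the setting, with 5787 higher and 5961 lower as reported and 6463 higher and 5159 lower with spike-in scaling. More probes were also higher than lower with normexp, with no filter and with the 4-fold limit. The counts of lost and gained detection (639 and 1264) come from flags alone, so another scaling cannot change them and says nothing about their stability. The fold limit and the stricter filter could not be applied to the agreement of probes. No paired analysis was possible because every stage was hybridized once, and no array could be left out.

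With normexp, whose offset raises dim values, 3789 probes were higher and 3529 lower at stage 15, among them 3208 maternal probes lower, 1224 new probes higher and 150 new probes lower. With detection on both arrays, 1003 new probes were higher and 224 lower, and with no filter 715 were lower. With the 4-fold limit 2535 probes were higher and 1392 lower, of which maternal probes gave 620 higher and 1097 lower and new probes 1350 higher and 123 lower. With classes from the egg alone, 894 new probes were lower. With 1 mean per accession, over fewer values, 3631 were higher and 3647 lower, with 3149 maternal values lower, 343 maternal values that lost detection, 1187 new values higher, 204 new values lower and 727 that gained detection. Measured from stage 10.5, an alternative added after seeing the data, 178 new fallers were at least 2-fold lower at stage 20, against 313 from stage 12.

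The median change of maternal probes, -0.21 (log2), was -0.23 with median scaling, -0.22 with quantile normalization, -0.0935 with spike-in scaling, -0.16 with normexp, -0.19 with detection on both arrays, with classes from the egg alone and with classes without the egg, and -0.17 with 1 mean per accession. Spike-in scaling, on 7 probes for added RNA, shifted all probes alike, and the median over all 43803 probes was then 0.07, against -0.04. The cause of these shifts was not tested.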
